A study of Mus musculus with 12 samples.

Results

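The genes described here are 32 markers of astrocyte reactivity, the change that astrocytes undergo after injury, infection or inflammation. They were chosen by name, with no expression threshold, and all 32 were found among the 56791 gene names of the expression table. They form 4 lists: 11 pan-reactive genes, 4 A1-type genes, 12 A2-type genes and 5 other genes of reactive astrocytes (Stat3, S100a6, S100b, Synm and Lgals3). RNA was sequenced from hippocampal astrocytes of naive adult male mice, sorted by fluorescence with an antibody to ACSA-2, an antigen of the astrocyte surface. Mice of the group labelled cKO were GfapcreERT2:Tnfrsf1b fl/fl, in which a tamoxifen-inducible Cre recombinase is named for the Gfap promoter and the floxed gene encodes TNFR2, a receptor for tumour necrosis factor. Mice of the group labelled Ctrl were Tnfrsf1b fl/fl, so that both groups carried the floxed gene and only cKO carried the Cre. Each group held 3 A numbers (A1, A2 and A8 in Ctrl; A4, A9 and A10 in cKO), and each A number had 2 libraries, S1 and S2.

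The labels define neither the A numbers nor S1 and S2, and they give no exact age, tamoxifen schedule or pooling of animals. S1 and S2 were averaged and each A number was counted as 1 sample, so n = 3 in each group. Nothing in the labels says that the A numbers were separate animals. The p-values thus set the group difference against the spread between these samples, which may be technical. Samples are called by their A number below, and the gene lists are called A1-type and A2-type to keep them apart from samples A1 and A2.

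Reactive astrocytes enlarge, build intermediate filaments of glial fibrillary acidic protein (Gfap), vimentin (Vim) and synemin (Synm), and secrete acute-phase and matrix proteins. Pan-reactive genes were defined as those induced in astrocytes after both systemic inflammation and ischaemic stroke, A1-type genes as those induced mainly by inflammation, and A2-type genes as those induced mainly by ischaemia. Cytokines of the interleukin-6 family act through the gp130 receptor chain, Janus kinases and the transcription factor STAT3 to induce many of them, while microglial interleukin-1 alpha, tumour necrosis factor and complement C1q induce the A1-type state. In healthy hippocampus Gfap and S100b are expressed at a high level without any injury, so neither marks reactivity alone.

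Expression was given as FPKM, fragments per kilobase of gene length per 1000000 assigned fragments, a scale on which genes can be compared per length. Recovered depth was 17311872 to 22025823 reads for S1 and 28096485 to 35323322 for S2, and may be overstated by a factor of 2. The targeted gene, Tnfrsf1b, was listed at 0 in 9 of 12 libraries, with 0.0275 FPKM in A1, 0.141 FPKM in A4, which was labelled cKO, and 0 in A2, A8, A9 and A10. At 22 recovered reads or fewer per library it could not check the labels, for A4 or for any other sample. The sum of microglial markers, given below, was also highest in A4, and its part in the Tnfrsf1b value was not tested. All 12 astrocyte markers had a mean of 1 FPKM or more, with a summed level of 4284 to 5388 FPKM in Ctrl and 5055 to 5868 FPKM in cKO. Other cell types also left RNA: 12 oligodendrocyte markers summed to 1096 to 2354 FPKM in Ctrl and 313 to 753 FPKM in cKO. All 9 endothelial and all 7 ependymal markers had a mean of 1 FPKM or more over the 12 libraries. However, 2 of the endothelial markers were at 0 in at least 1 library. Like the oligodendrocyte sums, the sums of 10 microglial markers (15.2 to 19.1 FPKM in Ctrl, 21.2 to 37.9 FPKM in cKO) and of 10 neuronal markers (13.6 to 14.5 FPKM in Ctrl, 7.10 to 10.9 FPKM in cKO) did not overlap between the groups. In each of these lists 3 of 10 genes had a mean of 1 FPKM or more. Microglia also make Cd14, Cd44, Lgals3 and Srgn; the part of these cells in the values below was not tested. Of 8 macrophage and neutrophil markers, 5 (Lyve1, Pf4, S100a8, S100a9 and Ly6g) were at 0 in every library. In bulk samples such as these, fewer cells of a type and less RNA per cell cannot be told apart.

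A mean of at least 1 FPKM over the 12 libraries was reached by 20 of the 32 genes, and 15 were at 1 FPKM or more in each of the 6 A numbers. These 20 were 8 of the 11 pan-reactive genes, 3 of the 4 A1-type genes, 4 of the 12 A2-type genes and all 5 other genes. The gene just above this level was Srgn, at a mean of 1.25 FPKM, and the gene just below it was Fbln5, at 0.845 FPKM. Gfap (97.8 FPKM), S100b (74.7 FPKM) and Vim (41.3 FPKM) were the most abundant, and ranked 207, 295 and 633 by mean FPKM among all gene names. Tm4sf1 (13.0 FPKM), S100a6 (12.6 FPKM) and Stat3 (10.1 FPKM) followed. The remaining 14 of the 20 lay between 1.25 and 7.54 FPKM.

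**Figure D1:**
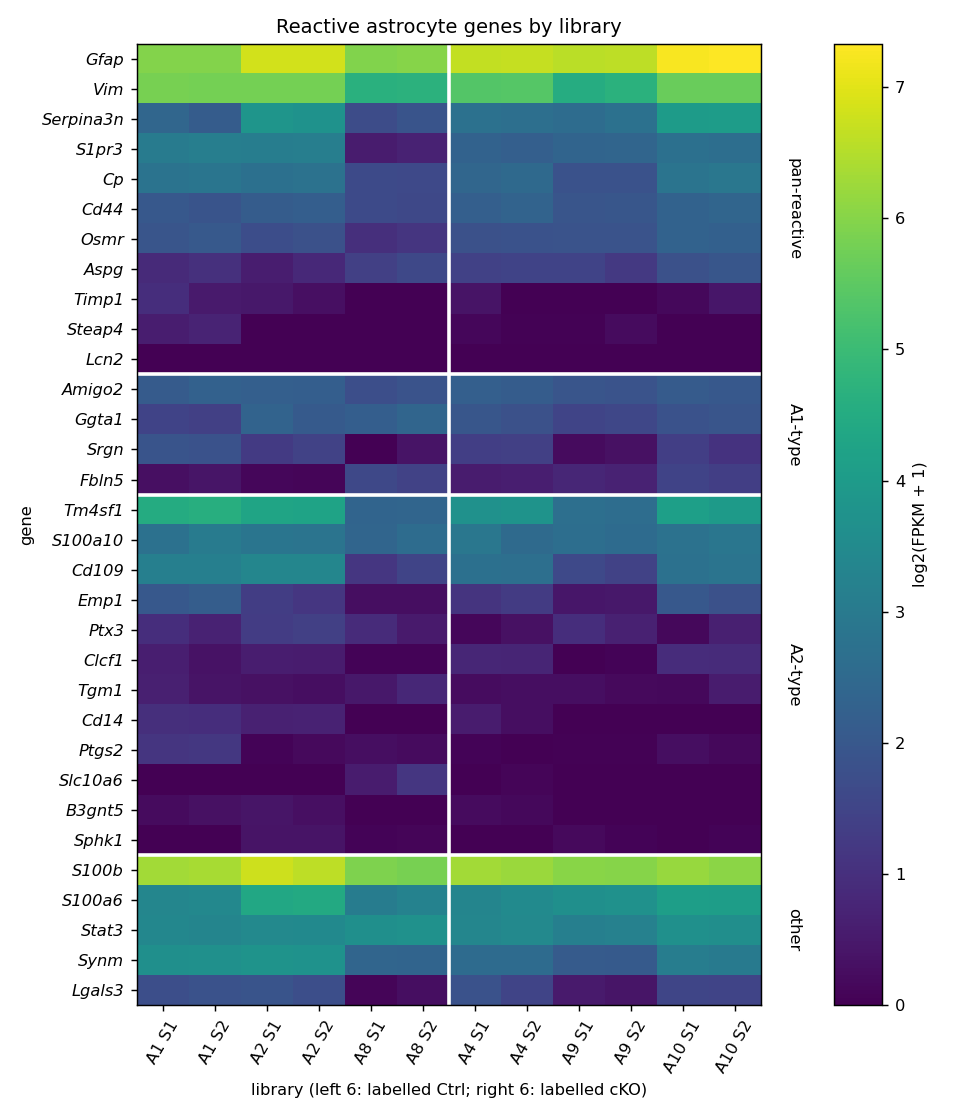
Level of each of the 32 genes (rows, grouped by list) in each of the 12 libraries (columns, 6 labelled Ctrl on the left and 6 labelled cKO on the right), coloured by log2(FPKM + 1). Gfap, S100b and Vim stand out in every column, while Lcn2 is at 0 in every column, and the S1 and S2 libraries of an A number look alike.

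None of the 20 genes tested passed the genotype test, and the other 12 of the 32 were under the filter and not tested. On the log2(FPKM + 1) scale, where a change in a weakly expressed gene appears smaller than it is, the cKO minus Ctrl difference was above 0 in 7 and below 0 in 13 of the 20 genes with a mean of at least 1 FPKM, with a median of -0.02 against -0.01 over all 17540 genes tested. With upper quartile, TMM or median scaling this split became 11 above 0 and 9 below. It also turned with single samples: 12 above and 7 below without A1 (Srgn then under the filter), 15 above and 5 below without A2, and 17 above and 3 below without A9, against 5 above and 15 below without A8. No gene of the 20 passed limma's test with Benjamini-Hochberg adjustment at 0.05, where 0% of all tested genes passed, and the lowest adjusted p was 0.718 (Gfap). At an unadjusted p under 0.05 there were also 0 of the 20, against 7.69% of all tested genes. None of the 20 had Ctrl and cKO samples that did not overlap, against 13.0% of all tested genes. No alternative model called a member at the adjusted threshold either.

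**Figure D2:**
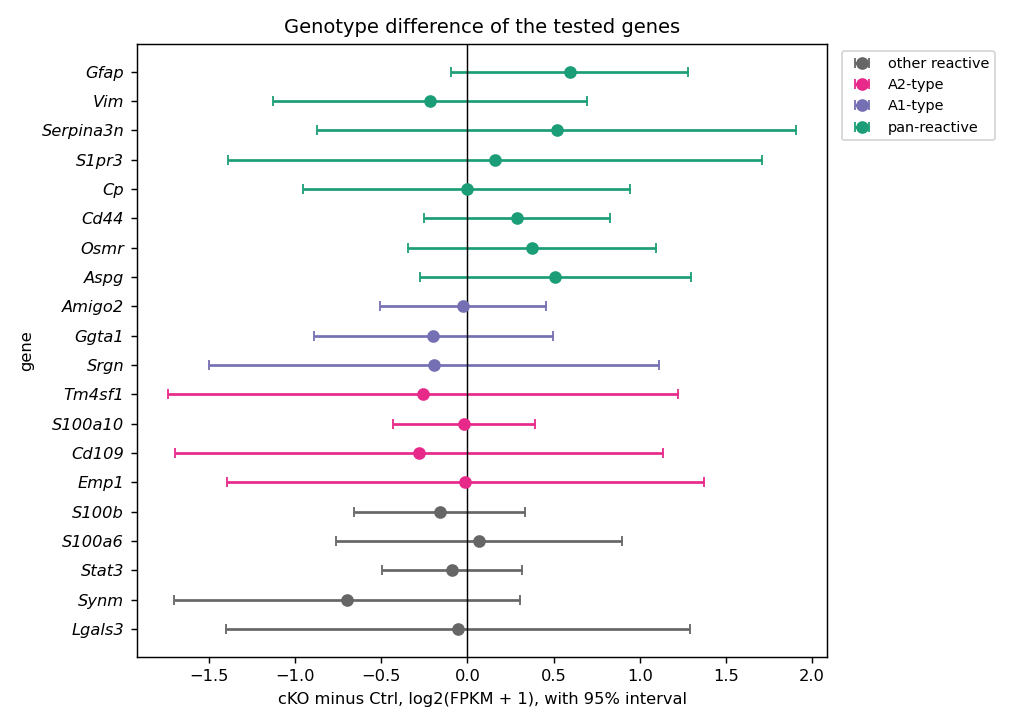
Difference between cKO and Ctrl on the log2(FPKM + 1) scale (horizontal axis) for the 20 genes with a mean of at least 1 FPKM (vertical axis), with points for the limma estimate, bars for its 95% interval and colour for the list. Every bar crosses 0; Gfap has the highest estimate, at 0.59, and Synm the lowest, at -0.70.

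Among the pan-reactive genes, 6 of the 8 tested had a difference above 0 and 2 below, with a median of 0.33 on the log2 scale, and none passed the test. That median was 0.11 without A8 and 0.14 without A10. Of all tested genes, 49.2% had a difference above 0. The 5 tested genes from the rest of the pan-reactive and A1-type lists, given further below, all had differences below 0. Gfap, the main astrocyte intermediate filament protein (chromosome 11, 102778162 to 102791738, minus strand, in the coordinates of the table), stood at 61.4 FPKM in A1, 112 FPKM in A2 and 62.0 FPKM in A8, against 101 FPKM in A4, 94.6 FPKM in A9 and 156 FPKM in A10. The highest sample, A10, was labelled cKO, but the Ctrl sample A2 lay above A4 and A9, so the groups overlapped. Levels were 78.5 ± 29.0 in Ctrl and 117 ± 33.9 in cKO (FPKM, mean ± SD, n = 3), a log2 difference of 0.59 (SE 0.29, 95% interval -0.09 to 1.28, adjusted p = 0.718). Gfap is also the gene whose promoter names the Cre allele, which cKO mice carried and Ctrl mice did not.

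Vim, the vimentin gene (chromosome 2, 13578738 to 13587637, plus strand), was at 55.1, 54.6 and 24.7 FPKM in A1, A2 and A8, and at 40.9, 23.3 and 49.2 FPKM in A4, A9 and A10. Its low samples were A8 and A9, 1 from each group, and the groups overlapped. The log2 difference was -0.22 (SE 0.38, 95% interval -1.13 to 0.70, adjusted p = 0.956), with levels of 44.8 ± 17.5 in Ctrl and 37.8 ± 13.2 in cKO (FPKM, mean ± SD, n = 3). Vim and Gfap, whose products form filaments together, therefore ordered the samples differently.

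Serpina3n, a secreted inhibitor of serine proteases (chromosome 12, 104372988 to 104380588, plus strand), was at 3.84 FPKM in A1, 12.7 FPKM in A2 and 2.48 FPKM in A8, and at 5.50, 5.33 and 15.4 FPKM in A4, A9 and A10. As for Gfap, A10 and A2 were the highest samples. The difference of 0.52 on the log2 scale had an SE of 0.59 and a 95% interval of -0.87 to 1.91 (adjusted p = 0.911). Serpina3n belongs to a multigene family with closely similar members, so its value depends on how reads shared with them were counted; its recovered reads were whole numbers in 12 of 12 libraries.

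S1pr3, a receptor for sphingosine 1-phosphate (chromosome 13, 51562675 to 51576833, plus strand), was at 7.58 FPKM in A1 and 7.63 FPKM in A2 but at 0.546 FPKM in A8, and at 3.82, 4.20 and 5.39 FPKM in A4, A9 and A10. The 3 cKO samples were close together and lay between the Ctrl samples, which differed 14.0-fold from lowest to highest. Its difference was 0.16 (SE 0.65, 95% interval -1.39 to 1.71, adjusted p = 0.982).

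The other 4 tested pan-reactive genes were lower. Cp, which encodes the copper-binding ferroxidase ceruloplasmin, ranged from 2.09 FPKM in A8 to 6.30 FPKM in A10, with a difference of -0.00 (95% interval -0.95 to 0.94). Cd44, the hyaluronan receptor, ranged from 2.08 FPKM in A8 to 4.12 FPKM in A10, with a difference of 0.29 (95% interval -0.25 to 0.82). Osmr, the receptor chain for oncostatin M, ranged from 1.10 FPKM in A8 to 3.83 FPKM in A10, with a difference of 0.38 (95% interval -0.34 to 1.10). Aspg, an asparaginase, ranged from 0.643 FPKM in A2 to 2.69 FPKM in A10, with a difference of 0.51 (95% interval -0.28 to 1.30). Sample A10 was thus the highest for each of these 4 genes, and A8 was the lowest for all but Aspg.

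Of the 3 pan-reactive genes under 1 FPKM, Lcn2, which encodes the iron-carrier-binding protein lipocalin-2 and is among the most strongly induced genes of reactive astrocytes, was listed at 0 in all 12 libraries. Steap4, a metalloreductase, was at 0 in 6 libraries and reached 0.575 FPKM in A1. Timp1, an inhibitor of matrix metalloproteinases, was at 0 in 5 libraries and reached 0.690 FPKM, also in A1. At 16 recovered reads or fewer per library, differences in Timp1 were not detectable at this depth.

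**Figure D3:**
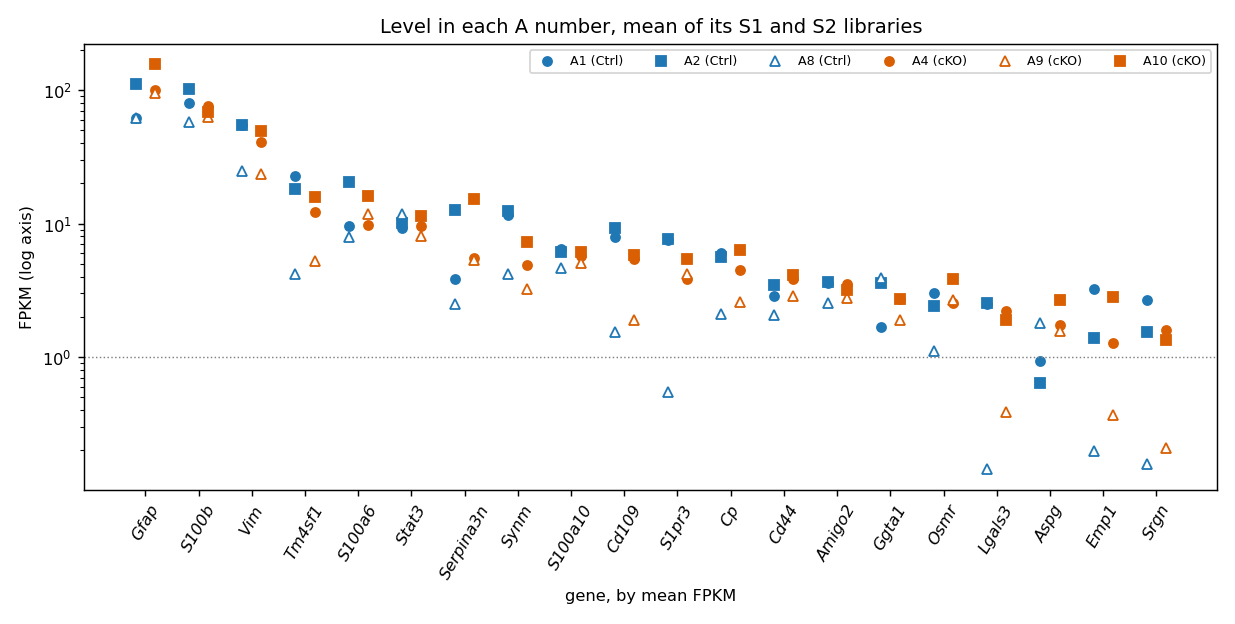
FPKM in each A number (points, Ctrl in blue and cKO in orange, open triangles for A8 and A9) for the 20 genes with a mean of at least 1 FPKM, on a log axis with a dotted line at 1 FPKM. Gfap and Serpina3n are highest in A10 and A2, while Vim, Tm4sf1 and Synm are lowest in A8 and A9.

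All 3 tested A1-type genes had differences below 0, with a median of -0.19 on the log2 scale, and none passed the test. Amigo2, a leucine-rich repeat adhesion protein, was at 3.56, 3.64 and 2.53 FPKM in A1, A2 and A8, and at 3.55, 2.76 and 3.16 FPKM in A4, A9 and A10. It varied little, 1.44-fold between the lowest and highest sample, and its difference was -0.03 (SE 0.20, 95% interval -0.51 to 0.46, adjusted p = 0.993). Ggta1, a galactosyltransferase that makes the alpha-gal sugar, was at 1.69, 3.61 and 3.90 FPKM in the Ctrl samples A1, A2 and A8, and at 2.72, 1.90 and 2.71 FPKM in A4, A9 and A10. Here A8 was the highest sample and A1 the lowest, and the difference was -0.20 (SE 0.29, 95% interval -0.89 to 0.49, adjusted p = 0.938).

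Srgn, which encodes serglycin, the core protein of a secretory granule proteoglycan that blood and endothelial cells also make, was at 2.70 FPKM in A1, 1.55 FPKM in A2 and 0.159 FPKM in A8. In the cKO samples A4, A9 and A10 it was at 1.58, 0.207 and 1.33 FPKM. A8 and A9 were again the low samples, and the difference was -0.19 (SE 0.55, 95% interval -1.50 to 1.11, adjusted p = 0.975). Endothelial markers summed to 82.4, 50.5 and 6.95 FPKM in A1, A2 and A8 and to 63.6, 10.3 and 8.82 FPKM in A4, A9 and A10; their part in the Srgn values was not tested. Fbln5, fibulin-5 of elastic fibres, fell short of a mean of 1 FPKM and was at 0.277, 0.0810 and 1.85 FPKM in A1, A2 and A8 and at 0.509, 0.678 and 1.67 FPKM in A4, A9 and A10, so that its highest and lowest samples were both Ctrl.

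The A2-type list was the least expressed: 8 of its 12 genes were under a mean of 1 FPKM. All 4 tested genes had a difference below 0 and a median of -0.14, and none passed the test. The median was -0.70 without A8 and -0.44 without A10, but 0.14 without A9, 0.11 without A1 and 0.02 without A2. Tm4sf1, a tetraspanin-like membrane protein that is abundant in endothelium, was at 22.5, 18.2 and 4.21 FPKM in A1, A2 and A8, and at 12.2, 5.25 and 15.7 FPKM in A4, A9 and A10. Its difference was -0.26 (SE 0.62, 95% interval -1.74 to 1.22, adjusted p = 0.969). It was low in A8 and A9 but not in A10. The endothelial sum given above was low in A8, A9 and A10, and its part in the Tm4sf1 values was not tested.

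Cd109, a membrane protein that binds transforming growth factor beta, was at 7.91, 9.23 and 1.54 FPKM in A1, A2 and A8, and at 5.46, 1.89 and 5.86 FPKM in A4, A9 and A10. The difference was -0.28 (SE 0.60, 95% interval -1.69 to 1.13, adjusted p = 0.965). Emp1, epithelial membrane protein 1, was at 3.24, 1.38 and 0.198 FPKM in A1, A2 and A8, and at 1.27, 0.368 and 2.80 FPKM in A4, A9 and A10. Its difference was -0.01 (SE 0.58, 95% interval -1.39 to 1.37, adjusted p = 0.999). Both genes shared the pattern of Tm4sf1, with A8 lowest and A9 next. S100a10, the partner of annexin A2, was at 6.44, 6.12 and 4.66 FPKM in A1, A2 and A8 and at 5.66, 5.10 and 6.12 FPKM in A4, A9 and A10, the narrowest range of the 20 genes at 1.38-fold. Its difference was -0.02 (SE 0.17, 95% interval -0.43 to 0.39, adjusted p = 0.994).

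The 8 A2-type genes under a mean of 1 FPKM were not tested. Ptx3, a secreted pattern recognition protein, was at 0.781, 1.52 and 0.662 FPKM in A1, A2 and A8, and at 0.177, 0.761 and 0.344 FPKM in A4, A9 and A10. Ptgs2, which encodes the prostaglandin-making enzyme cyclooxygenase-2, was at 1.22 FPKM in A1 and at 0.0952 and 0.177 FPKM in A2 and A8, with 0.0297, 0.0280 and 0.169 FPKM in A4, A9 and A10. A single Ctrl sample thus carried each of these genes above 1 FPKM, A2 for Ptx3 and A1 for Ptgs2.

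Slc10a6, a transporter of steroid sulphates, was at 0 in 9 libraries and at 0.868 FPKM in A8, where the S2 library held 84 recovered reads. Cd14, the lipopolysaccharide co-receptor of myeloid cells, was at 0.949, 0.608 and 0.334 FPKM in A1, A2 and A4 and at 0 in A8, A9 and A10. Clcf1, a cytokine of the interleukin-6 family, ranged from 0.0279 FPKM in A9 to 0.886 FPKM in A10, and Tgm1, a transglutaminase, from 0.182 to 0.570 FPKM. Sphk1, which makes sphingosine 1-phosphate, and B3gnt5, a glycolipid-making enzyme, stayed at or under 0.314 FPKM and 0.283 FPKM.

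Of the other 5 genes, 1 had a difference above 0 and 4 below, and none passed the test. S100b, a calcium-binding protein of astrocytes (chromosome 10, 76089687 to 76096993, plus strand), was at 80.2, 102 and 57.4 FPKM in A1, A2 and A8 and at 76.5, 63.4 and 68.9 FPKM in A4, A9 and A10. The cKO samples lay within the Ctrl range, and the difference was -0.16 (SE 0.21, 95% interval -0.66 to 0.34, adjusted p = 0.928). Synm, which links intermediate filaments to the membrane (chromosome 7, 67379908 to 67409490, minus strand), was at 11.6, 12.5 and 4.18 FPKM in A1, A2 and A8 and at 4.91, 3.22 and 7.33 FPKM in A4, A9 and A10. Levels were 9.44 ± 4.57 in Ctrl and 5.15 ± 2.07 in cKO (FPKM, mean ± SD, n = 3), and only A8 kept the groups overlapping. The difference of -0.70 (SE 0.42, 95% interval -1.70 to 0.31, adjusted p = 0.795) was the lowest of the 20 genes.

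S100a6, a calcium-binding protein, was at 9.60, 20.5 and 7.98 FPKM in A1, A2 and A8 and at 9.76, 11.8 and 16.1 FPKM in A4, A9 and A10, with A2 and A10 highest as for Gfap and Serpina3n. Its difference was 0.07 (SE 0.35, 95% interval -0.76 to 0.89, adjusted p = 0.985). Stat3, the transcription factor itself, was at 9.29, 10.04 and 11.8 FPKM in A1, A2 and A8 and at 9.57, 8.13 and 11.5 FPKM in A4, A9 and A10. It was even across samples, and its difference was -0.09 (SE 0.17, 95% interval -0.50 to 0.31, adjusted p = 0.959). Lgals3, which encodes galectin-3, ranged from 0.144 FPKM in A8 to 2.56 FPKM in A2, a 17.8-fold range, with a difference of -0.05 (95% interval -1.40 to 1.29).

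The genotype difference was smaller than the SD between A numbers of a genotype for each of the 20 genes but Gfap, Cd44, Aspg and Synm. The S1 and S2 libraries of an A number differed by a median of 0.0800 on the log2 scale over the 20 genes, and by 0.398 at most. That SD had a median of 0.562. It was larger in Ctrl than in cKO for 19 of the 20 genes, a direction shared by 66.9% of all tested genes.

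Much of this variation followed a few samples. A8 was the lowest of the 6 for 14 of the 20 genes, while it was the lowest for 26.1% of all tested genes. In a pattern chosen after the values were seen, A8 and A9, 1 sample of each genotype, were the lowest pair for 11 of the 20 genes: Vim, Cp, Srgn, Amigo2, S100a10, Cd109, Emp1, Tm4sf1, S100b, Synm and Lgals3. The same pair was lowest for 13.9% of all tested genes. In another such pattern A2 and A10 were the highest pair for 3 of the 20 genes, Gfap, Serpina3n and S100a6, against 6.51% of all tested genes. Gfap was lowest in A1, at 61.4 FPKM, and so was not among the genes with A8 and A9 as the lowest pair. The sum of 5 choroid plexus markers was also highest in A10 (450 FPKM) and A2 (70.7 FPKM), followed by A1 (65.4 FPKM), with 1.62 to 7.90 FPKM in A4, A8 and A9. Fibroblast markers were highest in A10 as well, at 14.6 FPKM against 5.30 to 7.83 FPKM in the other samples. The part of these markers in the genes highest in A10, which also include Cp, Cd44, Osmr and Aspg, was not tested.

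Among the marker lists, ependymal markers and immediate-early genes had their lowest sums in A8 and A9. Other lists followed this pair less. It was lowest for 3 of 9 endothelial, 2 of 8 mural and 1 of 10 microglial markers. It was also lowest for 1 of 5 choroid plexus, 1 of 6 fibroblast, 0 of 10 neuronal and 0 of 6 oligodendrocyte precursor markers. The sum of 7 ependymal markers was 252, 215 and 62.7 FPKM in A1, A2 and A8 and 133, 55.4 and 159 FPKM in A4, A9 and A10, and A8 and A9 were the lowest pair for 7 of 7. Immediate-early genes, which respond to stimulation and to cell dissociation, summed to 1109, 1240 and 318 FPKM in A1, A2 and A8 and to 588, 238 and 544 FPKM in A4, A9 and A10, and 12 of 14 had that lowest pair. By contrast A8 and A9 had the highest astrocyte sums, 5388 and 5868 FPKM, and were the lowest pair for 0 of 12 astrocyte markers and 0 of 12 oligodendrocyte markers. The part of these markers in the values of the 11 genes was not tested. A8 and A9 also had the fewest genes of the whole table at 1 FPKM or more. These numbered 15743 and 15933 in the A8 libraries and 16139 and 16354 in the A9 libraries, against 16740 to 17452 in the others. The part of this difference in the low values of A8 and A9 was not tested either.

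**Figure D4:**
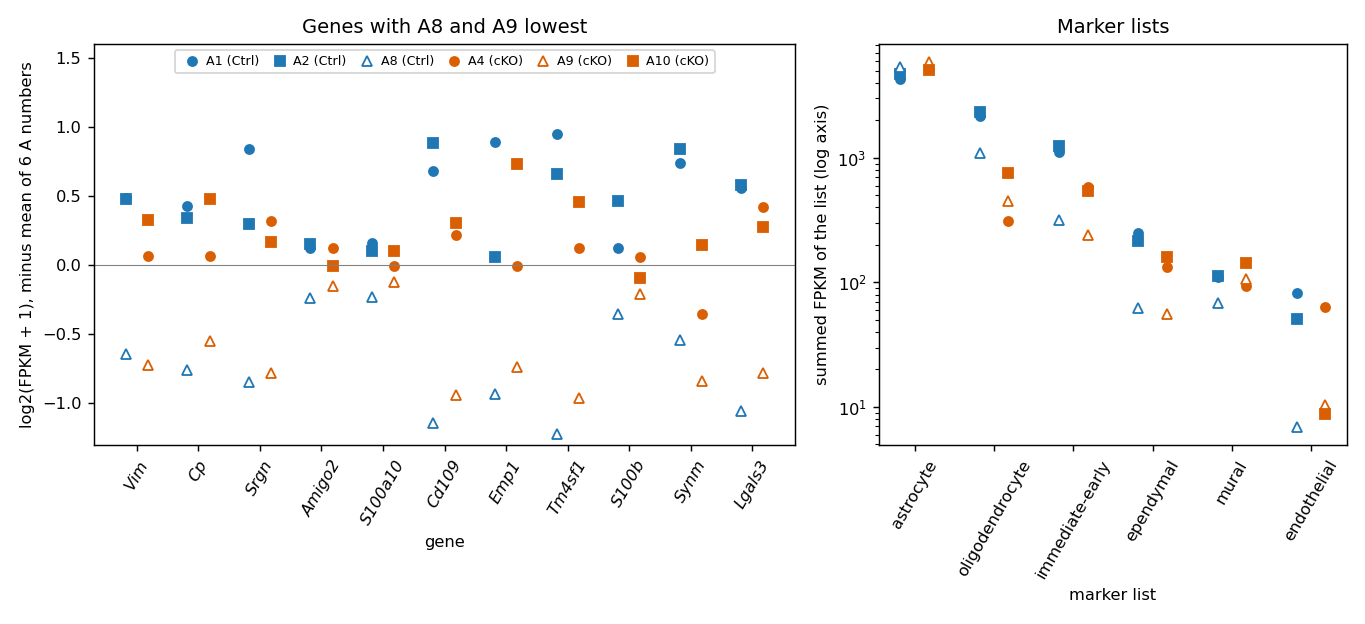
Left, log2(FPKM + 1) of the 11 genes with A8 and A9 lowest, minus each gene's mean over the 6 A numbers; right, summed FPKM of 6 marker lists on a log axis. Points are A numbers, blue for Ctrl and orange for cKO, and the open triangles of A8 and A9 lie below the other samples for all 11 genes and for the ependymal and immediate-early lists, but not for the astrocyte list.

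Stretches upstream of 5 of these 11 genes are printed, those of the 11 with a motif match before the start. Srgn, Amigo2, S100b and Synm share the sample pattern and had windows with no match to the motifs searched. RefSeq promoter windows (GRCm38.p6, 250 bases before to 50 after each start) were found for 28 of the 32 genes, in 37 windows; S100a10, Clcf1, Cd109 and Cd14 had none. Motifs were searched on both strands: the STAT motif TTCNNNGAA, the AP-1 motif TGANTCA and the kappa-B consensus. Capitals mark the match. The stretches are Emp1 at chr6:135362791-135362839 (plus strand, STAT, 120 bases before the start), Cp at chr3:19956857-19956903 (plus, AP-1, 177 before), Vim at chr2:13574149-13574198 (plus, kappa-B, 142 before), Tm4sf1 at chr3:57301989-57302036 (minus, kappa-B, 28 before) and Lgals3 at chr14:47373770-47373819 (plus, kappa-B, 70 before).
Emp1: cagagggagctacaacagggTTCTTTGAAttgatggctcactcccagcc
Cp: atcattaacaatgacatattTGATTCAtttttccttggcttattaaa
Vim: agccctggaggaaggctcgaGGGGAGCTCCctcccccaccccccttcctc
Tm4sf1: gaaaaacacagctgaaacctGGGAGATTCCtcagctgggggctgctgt
Lgals3: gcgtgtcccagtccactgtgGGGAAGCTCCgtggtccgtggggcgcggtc

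The STAT motif lay in 6 of the 37 windows (16.2%), those of Emp1, Gfap, Sphk1, Steap4 and Tgm1, against 8.30% of all 32851 windows. In Gfap the match began 2 bases before the start and ran past it. The AP-1 motif was in 5 windows (13.5%), of Cp, Emp1, Osmr and Sphk1, against 7.81% of all windows. In Sphk1 the STAT match and the AP-1 match were each the same site counted in overlapping windows. Kappa-B matches were in 7 windows (18.9%), of Lgals3, Ptx3, Sphk1, Steap4, Tm4sf1 and Vim, against 8.46%. In Emp1 the AP-1 match 25 bases before the start overlaps a STAT match 22 bases before it. These shares rest on few windows, and their difference from all windows was not tested. A match describes the letters only and shows no binding in these cells.

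Which genes stood apart depended on single samples. Without A8, 15 of the 20 genes had a difference below 0, with a median of -0.28, and 10 had samples that did not overlap between genotypes, against 33.4% of all tested genes. Of these 10, Aspg was higher in cKO, and Amigo2, Cd109, Lgals3, S100a10, S100b, S1pr3, Synm, Tm4sf1 and Vim were lower. At an unadjusted p under 0.05 there were 3 of 20, against 13.8% of all tested genes, and none passed after adjustment. They were Synm (-1.14, SE 0.29, adjusted p = 0.202), S1pr3 (-0.67, SE 0.18, adjusted p = 0.216) and S100b (-0.38, SE 0.15, adjusted p = 0.343). For S1pr3 the sign turned, since the difference with all samples was 0.16.

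Without A2 the genes that stood apart were others: 4 of 20 did not overlap, against 22.4% of all tested genes, and all 4 were higher in cKO. They were Gfap (0.88, SE 0.23, adjusted p = 0.606), Serpina3n (1.10, SE 0.47, adjusted p = 0.741), S100a6 (0.45) and Cd44 (0.41). Without A10 the differences were 0.37 for Gfap and 0.07 for Serpina3n (adjusted p = 0.953 and 0.999), and without A8 Serpina3n was at 0.11. Over the 19 alternatives, adjusted p ranged from 0.202 upwards for Synm, from 0.216 for S1pr3, from 0.343 for S100b, from 0.376 for Gfap and from 0.741 for Serpina3n, to just under 1 for each. The sign of the difference was the same under all 19 alternatives for 7 of the 20 genes: above 0 for Gfap, Serpina3n, Cd44, Osmr and Aspg, and below 0 for Ggta1 and Synm.

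**Figure D5:**
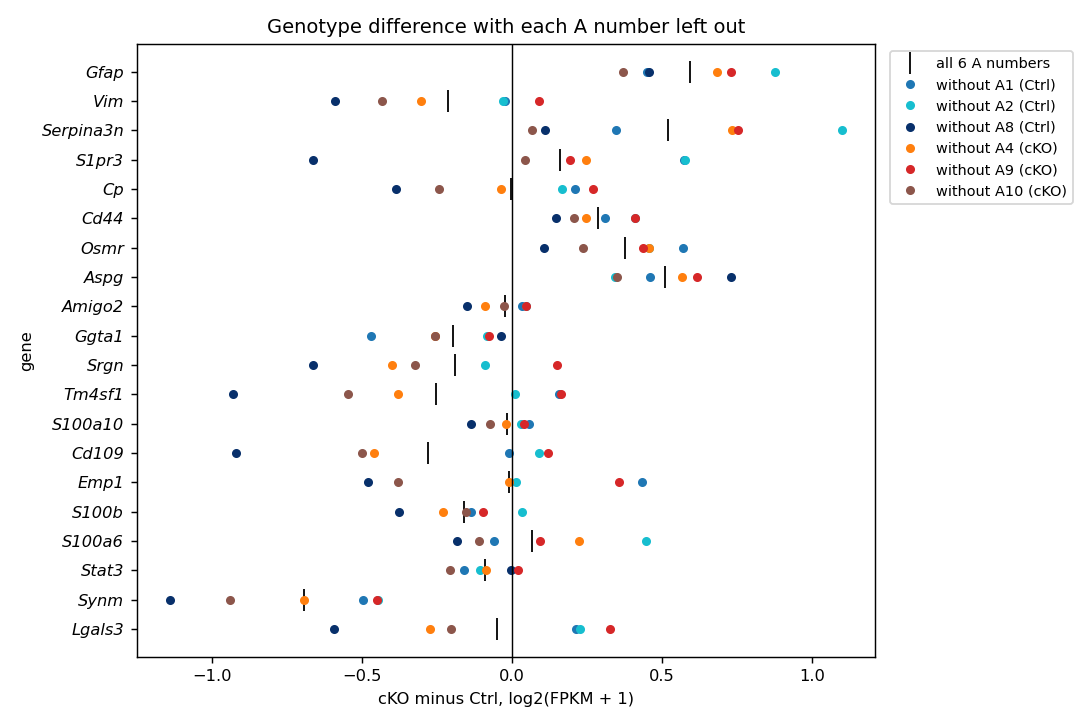
Difference between cKO and Ctrl on the log2(FPKM + 1) scale for the 20 tested genes, with all 6 A numbers (vertical mark) and with each A number left out in turn (coloured points). Leaving out A8 gives the lowest value for S1pr3 (-0.67), Synm (-1.14), Tm4sf1 (-0.93) and Cd109 (-0.92), and leaving out A2 gives the highest value for Gfap (0.88) and Serpina3n (1.10).

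Other genes of the same pathways were taken from 6 lists, with 42 tested genes in all. None passed the adjusted threshold. An unadjusted p under 0.05 was found for 2 of the 42, Lif and Ednrb, against 7.69% of all tested genes, and 3 of the 42, Lif, Jak1 and Ednrb, did not overlap, against 13.0%; neither share is above that of all genes. In the list upstream of STAT3, 5 of the 8 tested genes of 12 had a difference above 0 and 3 below. Lif, a cytokine that signals through gp130, was at 1.19, 1.20 and 0.432 FPKM in A1, A2 and A8 and at 2.66, 2.08 and 2.18 FPKM in A4, A9 and A10. The groups did not overlap, and the difference was 0.80 (SE 0.30, 95% interval 0.08 to 1.51, adjusted p = 0.607). Jak1, a Janus kinase, did not overlap either, at 23.5 ± 0.0708 in Ctrl and 25.3 ± 0.145 in cKO (FPKM, mean ± SD, n = 3), with a difference of 0.10 (adjusted p = 0.893). Cntfr, the receptor for ciliary neurotrophic factor, averaged 62.7 ± 5.56 FPKM in Ctrl against 72.2 ± 11.9 FPKM in cKO (difference 0.19, adjusted p = 0.854).

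Among STAT3 targets and feedback genes, 1 of 8 tested genes had a difference above 0 and 7 below, with a median of -0.62. Socs3, the inhibitor that STAT3 induces, was at 33.4, 22.4 and 1.79 FPKM in A1, A2 and A8 and at 6.06, 3.03 and 10.4 FPKM in A4, A9 and A10. A8 was the lowest sample although it was labelled Ctrl, and the difference was -0.93 (SE 0.93, 95% interval -3.13 to 1.27, adjusted p = 0.896). It was -2.05 without A8 and -0.23 without A1. Junb, an AP-1 subunit that is also on the immediate-early list, was at 52.9 ± 29.5 FPKM in Ctrl and 28.4 ± 14.2 FPKM in cKO (difference -0.82, adjusted p = 0.852). The immediate-early sums given above were lowest in A8 and A9. That pair was also lowest for 4 of these 8 tested genes, Socs3, Ptpn2, Nfil3 and Junb, against 13.9% of all tested genes. The part of the immediate-early genes was not tested.

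The 5 tested genes from the rest of the pan-reactive and A1-type lists all had differences below 0, with a median of -0.62 and none past the test. Hspb1, a small heat shock protein, was at 12.9, 7.09 and 0.771 FPKM in A1, A2 and A8 and at 4.17, 2.21 and 1.47 FPKM in A4, A9 and A10 (difference -0.76, adjusted p = 0.893). H2-D1, a class I histocompatibility gene, had a difference of -0.35 (adjusted p = 0.894). It belongs to a family of near-identical genes, so its value is uncertain.

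Of 6 tested genes for intermediate filaments and their partners, 1 had a difference above 0 and 5 below. Tuba1a, an alpha-tubulin with near-identical relatives, had a difference of -0.44 (adjusted p = 0.872), and Flna, an actin crosslinker, one of -0.08 (adjusted p = 0.981). A8 and A9, a pair chosen after the values were seen, were the lowest pair for 6 of these 6 genes. The same pair was lowest for 21 of the 42 tested pathway genes, against 13.9% of all tested genes. Among growth and matrix regulators 6 of 14 were above 0 and 8 below. Ednrb, the endothelin receptor B of astrocytes, was at 123, 137 and 162 FPKM in A1, A2 and A8 and at 169, 222 and 179 FPKM in A4, A9 and A10. The groups did not overlap, and the difference was 0.43 (SE 0.16, 95% interval 0.06 to 0.80, adjusted p = 0.588). Fgfr3, a fibroblast growth factor receptor of astrocytes, had a difference of 0.18 (adjusted p = 0.818).

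The last list held 6 genes: 5 for inducers of the A1-type state (Il1a, Tnf, C1qa, C1qb and C1qc) and the marker C3. Only C3 reached a mean of 1 FPKM, and none of the 5 inducer genes did. Tnf was at 0 in every A number but A10, at 0.274 FPKM. In A4, labelled cKO, 3 of the 5 inducer genes were above 1 FPKM: C1qa at 2.05 FPKM, C1qb at 1.36 FPKM and Il1a at 1.22 FPKM. In the other samples C1qa was at 0.305 FPKM or less, Il1a at 0.497 FPKM or less and C1qb at 0.973 FPKM or less. The summed microglial markers, which include C1qa and C1qb, were also highest in A4, at 37.9 FPKM; their part was not tested. C3, the complement component used as an A1-type marker, was at 3.34, 3.53 and 0.676 FPKM in A1, A2 and A8 and at 2.14, 2.06 and 4.18 FPKM in A4, A9 and A10. The groups overlapped, with A8 the lowest sample, and the difference was 0.20 (SE 0.44, 95% interval -0.86 to 1.25, adjusted p = 0.967).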

How the data were processed

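The deposited table gives FPKM per gene in 12 libraries, computed by the authors. Per the submitters' processing notes, the tools named were FastQC, STAR, featureCounts and DESeq2 and the builds mm10 and GRCm38, with no role or version. Of 51948 genes matched by identifier to GENCODE M21 (GRCm38), 2.77% had the same start and end, so the build of the table's coordinates is not settled. Rows sharing a symbol were summed (147 symbols), and 310 rows without a symbol kept their identifier. Library depth was derived from the spacing of low FPKM values (82.8% to 86.3% of genes above 0 came out whole within 0.02 of a read). Of counts from 1 to 20, 72.6% to 80.4% were even, so a pair may have entered as 2 reads. Without molecular identifiers, reads that are copies of 1 molecule cannot be told from others.

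S1 and S2 of each A number were averaged as log2(FPKM + 1). Levels in FPKM are the mean of S1 and S2. Genes with a mean of at least 1 FPKM over the 12 libraries (17540) were tested with limma 3.58.1 in R 4.3.3 (variance trend, two-sided, Benjamini-Hochberg adjustment over all tested genes, threshold 0.05). Sums, counts and motif searches used Python 3.11.15 with pandas 2.3.3. The fit was tried on simulated data with planted changes of 2 on the log2 scale, larger than the difference of any tested member. That trial does not show whether changes of the size seen here would be detected. Statistics are given for the 4 genes of each list with the highest mean and for genes with an unadjusted p under 0.05 or no overlap, and of each pathway list for such genes and the 2 most abundant. Gfap, Vim, Lcn2 and Serpina3n were always named. The members, lists and tests were chosen with earlier results of these data known. The 19 alternatives were another pseudocount, filters, scalings, eBayes settings, averaging, S1 or S2 used alone, fits of all 12 libraries, and each A number left out.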

Additional observations from a re-analysis of the deposited data

How the results depend on the processing

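No member passed the adjusted threshold under any of the 19 alternatives. Over all genes, limma called 0 at an adjusted p under 0.05, 112 when all 12 libraries were fitted and A number was a random effect, 80 with the replicate block (S1 or S2) added to that model, and 0 to 1 when 1 A number was left out (the 1 without A1). S1 and S2 pair no Ctrl sample with a cKO sample. Members with an unadjusted p under 0.05 numbered 1 with upper quartile scaling (Gfap; 7.90% of all tested genes), 2 with the random effect (Gfap and Synm; 8.95%), 1 with the replicate block (Gfap; 8.48%) and 0 to 3 with 1 A number left out (4.93% to 13.8%). Members that did not overlap numbered 1 in S1 alone (Aspg; 13.1% of all tested genes) and 0 to 10 with 1 A number left out (19.7% to 33.4%), the 10 without A8. With 1 A number left out, the median of the pan-reactive list ran from 0.11 (without A8) to 0.43 and that of the A2-type list from -0.70 (without A8) to 0.14 (without A9). The median of the A1-type list ran from -0.26 to 0.045 (without A9) and that of the other 5 genes from -0.38 (without A8) to 0.031 when 1 A number was left out. Srgn was under the filter without A1.

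Small differences changed sign. Upper quartile, TMM and median scaling gave 0.060, 0.031 and 0.035 for Cp, 0.036, 0.0082 and 0.015 for Amigo2, 0.050, 0.019 and 0.021 for S100a10, and 0.030, 0.011 and 0.028 for Emp1. A pseudocount of 0.1 FPKM gave 0.0078 for Cp, 0.11 for Emp1 and 0.14 for Lgals3. S1 alone gave 0.051 for Amigo2, 0.11 for S100a10 and 0.048 for Lgals3, and S2 alone 0.011 for Cp. Leaving out each A number in turn gave -0.59 to 0.090 for Vim, -0.67 to 0.58 for S1pr3, -0.39 to 0.27 for Cp, -0.66 to 0.15 for Srgn, -0.15 to 0.045 for Amigo2, -0.14 to 0.056 for S100a10, -0.92 to 0.12 for Cd109, -0.48 to 0.43 for Emp1, -0.93 to 0.16 for Tm4sf1, -0.21 to 0.020 for Stat3, -0.18 to 0.45 for S100a6, -0.38 to 0.031 for S100b, -0.59 to 0.32 for Lgals3, -0.27 to 0.45 for C3 and -0.39 to 0.15 for Flna. Among genes that kept their sign, Socs3 ran from -2.05 to -0.23, Hspb1 from -1.63 to -0.13, Junb from -1.42 to -0.31, H2-D1 from -0.71 to -0.14, Tuba1a from -0.86 to -0.22, Synm from -1.14 to -0.45, Serpina3n from 0.067 to 1.10, Gfap from 0.37 to 0.88, Osmr from 0.10 to 0.57, Cd44 from 0.14 to 0.41, Aspg from 0.34 to 0.73 and Ggta1 from -0.47 to -0.039. Where the sign turned, the lowest values came without A8, except for Stat3 (without A10). The cause was not tested. With 3 samples a group, exact permutation of a single value cannot go below 0.1.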
